A study of Mus musculus with 6 samples.

Results

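The chemokine ligands of mouse articular cartilage were examined at 2 ages. Genes were taken by symbol: every Ccl or Cxcl gene with a number, together with Cx3cl1, Xcl1, Ppbp and Pf4, and without genes annotated as pseudogenes, which gave 38 of the 33971 genes in the deposited table. Cxcl11 matched by name, but its annotation as a polymorphic pseudogene kept it out (8 counts at most in any library). Of the 38 ligands, 22 belong to the CC family, 14 to the CXC family, 1 to the C family (Xcl1) and 1 to the CX3C family (Cx3cl1).

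The study asked how the transcriptome of articular cartilage changes as mice age. Poly(A) RNA from articular cartilage of wildtype (WT) mice was sequenced in 3 libraries at 2 months of age and 3 libraries at 18 months, with no treatment in either group. The labels do not say whether a library came from 1 animal or from several, so p-values measure the spread between these libraries. The methods name male mice, yet Xist, the transcript that silences an X chromosome in female cells, was counted 88239 to 102417 times per library at 2 months and 11 to 30 times at 18 months, so age and sex cannot be told apart in any value given here.

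Chemokines are small secreted proteins that draw leukocytes along a concentration gradient by binding receptors that signal through G proteins, with Cx3cl1 and Cxcl16 also made as membrane-anchored forms. Each ligand gene tends to be used by certain cells. Platelets and megakaryocytes store Pf4 and Ppbp in granules, myeloid cells make several CC ligands, T and NK cells make Ccl5 and Xcl1, and stromal cells of the marrow make Cxcl12, which holds blood stem cells and developing B cells in their niche. Cartilage itself carries no blood vessels, so leukocytes are scarce in it and abundant in the bone and marrow beneath. The ligands were therefore ordered by the cell type that textbooks give as their usual source, which is a way of arranging them and not a measurement of where the transcripts came from.

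Sequencing depth was even, at 48171507 to 59085179 counts per library. Articular chondrocyte markers went against the tissue label at 18 months. The 16 markers, Col2a1 and Acan among them, summed to 10400 to 12400 FPKM (fragments per kilobase of transcript, scaled to the fragments of the library) at 2 months and to 95.0 to 338 at 18 months, and all 16 were called lower. Markers of neutrophils summed to 10.1, 4190 and 109 FPKM in 2-month replicates 1, 2 and 3, and to 43100 to 48000 at 18 months. The second 2-month library thus stood apart from the other 2-month libraries, and every ligand below is given with that library in view. Among the 18-month libraries, replicate 1 stood apart in chondrocyte markers, at 338 FPKM against 95.0 and 96.1 in replicates 2 and 3. Libraries of the same age differed by 6.32 to 48.7 times the counting noise, which is more than sequencing the same library again would give. This measure cannot tell separate animals from separate preparations of the same RNA.

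Genes were called at an adjusted p under 0.05 and a log2 fold change past 1 by the quasi-likelihood method of edgeR, adjusted after Benjamini and Hochberg for 20397 genes. Of all genes tested, 14.9% were called higher and 21.3% lower at 18 months. These shares are the background for every count of called genes given below. Among the 38 ligands, 13 were called higher, 2 lower and 11 not called, and 12 had too few counts to be tested. Without overlap between the ages, 19 tested ligands were higher and 3 lower at 18 months, against 33.9% and 34.6% of all genes tested. The median log2 fold change of the 26 tested ligands was 3.47 (3.23 with 3 ligands at their lower bounds), against -0.02 over all genes tested. Ligands that are almost absent at 2 months could pass the filter on low counts through the 18-month libraries alone, so these counts describe the tested ligands and do not speak for all 38. When 18-month replicate 2 or 18-month replicate 3 was left out, 7 ligands were called higher and 1 lower. Without 2-month replicate 2, 16 were called higher and 3 lower.

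**Figure D1:**
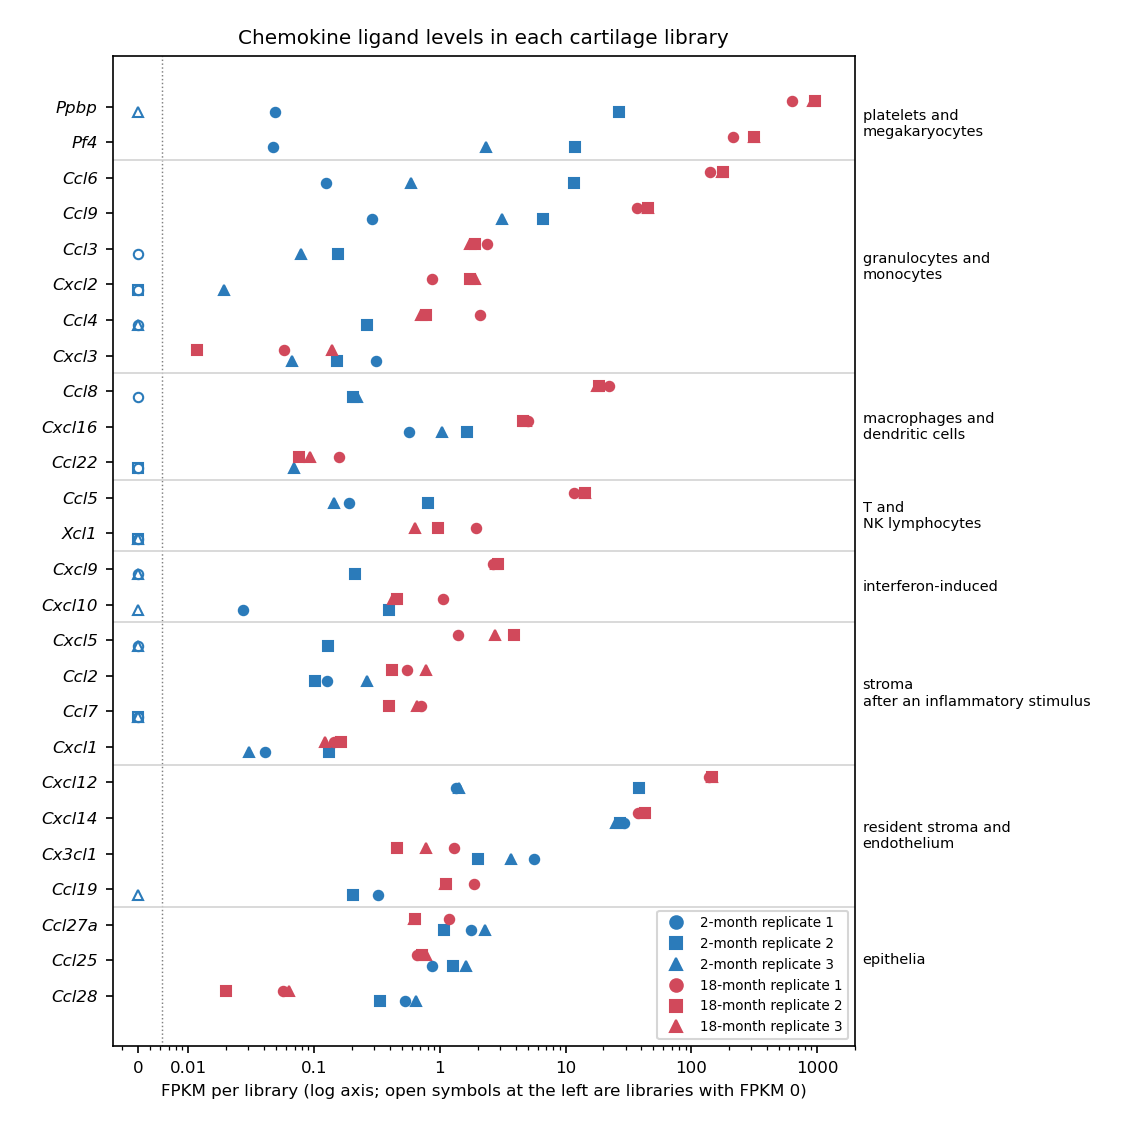
FPKM (log axis) of the 26 tested ligands in each of the 6 libraries, with 2-month libraries in blue and 18-month libraries in red, arranged by usual cell source. Ppbp, Pf4, Ccl6 and Cxcl12 each reached over 100 FPKM in all 18-month libraries. Among the 2-month libraries, replicate 2 (squares) is the highest for each of these ligands.

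The promoters of 5 ligands of chromosome 5 are shown, because these genes lie within 147 kb of each other (chr5:90759360-90905938, GRCm38) and their transcripts behaved very differently. Ppbp and Pf4, which are separated by 2.37 kb, held the highest ligand levels at 18 months. Cxcl1, Cxcl2 and Cxcl3 are close relatives that attract neutrophils through Cxcr2, and Cxcl2 alone of them was called. They were chosen after their values were seen. Each line gives the 150 bases before the transcript start on the plus strand (RefSeq, GRCm38.p6). In Ppbp and Pf4 capitals mark TATAAA, the TATA box, and AGGAAG, a core bound by ETS factors, on either strand. In the other 3 promoters capitals mark the binding consensus of NF-kB, the factor that switches on many inflammatory genes.
Ppbp, chr5:90768368-90768517: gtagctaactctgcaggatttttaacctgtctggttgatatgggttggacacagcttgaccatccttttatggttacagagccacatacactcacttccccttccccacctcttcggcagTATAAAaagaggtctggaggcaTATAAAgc
Pf4, chr5:90772285-90772434: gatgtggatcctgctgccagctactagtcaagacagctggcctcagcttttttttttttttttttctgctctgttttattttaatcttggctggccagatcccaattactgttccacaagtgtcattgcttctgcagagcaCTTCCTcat
Cxcl3, chr5:90785951-90786100: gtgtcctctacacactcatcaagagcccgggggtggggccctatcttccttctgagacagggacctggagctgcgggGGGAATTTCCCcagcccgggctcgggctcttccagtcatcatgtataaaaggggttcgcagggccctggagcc
Cxcl1, chr5:90891095-90891244: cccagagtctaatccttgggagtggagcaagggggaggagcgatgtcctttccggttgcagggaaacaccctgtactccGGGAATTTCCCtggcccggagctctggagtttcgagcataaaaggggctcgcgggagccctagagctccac
Cxcl2, chr5:90903749-90903898: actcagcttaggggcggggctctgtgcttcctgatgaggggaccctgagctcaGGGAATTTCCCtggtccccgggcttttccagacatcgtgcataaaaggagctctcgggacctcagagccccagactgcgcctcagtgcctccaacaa

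The Ppbp window held TATAAA starting 30 and again 8 bases before the start, and Pf4 held AGGAAG on the minus strand, 9 bases before it. These motifs were not particular to Ppbp and Pf4. TATAAA also began 30 bases before the start of Cxcl3. AGGAAG also lay on the minus strand, 106 bases before Cxcl3 and 124 bases before Cxcl2. Those matches are not capitalised above. The NF-kB consensus began 73, 71 and 97 bases before the start of Cxcl3, Cxcl1 and Cxcl2, and in each of them it carried the same capital letters. On the other strand the consensus also matched, 1 base away. Promoter windows were found for 29 of the 38 ligands, in 35 windows of 250 bases before the start. NF-kB matches were in 6 of these 35 windows (17.1%) and in 7.25% of the 32851 windows of all genes. TATAAA was in 31.4% of the ligand windows and 12.4% of all windows, AGGAAG in 42.9% and 29.5%, GATAA, the GATA factor core, in 20% and 22.6%, and the interferon response core in 8.57% and 2.98%, both strands counted. These are matches of letters, and no binding was measured.

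Pf4 (platelet factor 4, Cxcl4) and Ppbp (pro-platelet basic protein, Cxcl7) were the main ligand transcripts at 18 months. Pf4 (ENSMUSG00000029373, chr5:90772435-90773383) had 2, 505 and 96 counts in 2-month replicates 1 to 3 and 10433, 14352 and 14493 counts in the 18-month replicates. Each 18-month library lay far above each 2-month library. Pf4 rose from 4.77 ± 6.31 to 282 ± 58.1 FPKM (SD, n = 3 each), a log2 fold change of 5.87 ± 1.57 (SE, edgeR adjusted p = 0.025). Leaving out 2-month replicate 3 or any 18-month library lost the call (adjusted p of 0.052 to 0.087), while leaving out 2-month replicate 2 raised the log2 fold change to 7.76 (adjusted p = 0.0029).

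Ppbp (ENSMUSG00000029372, chr5:90768518-90770063), cut outside the platelet into the neutrophil attractant NAP-2, gave 3, 1675 and 0 counts at 2 months and 46107, 65110 and 64193 counts at 18 months. The ages did not overlap, and the highest 2-month library was at 3.15% of the 18-month mean FPKM. Even so, Ppbp was not called across all libraries, with a log2 fold change of 6.59 ± 2.64 (SE, edgeR adjusted p = 0.082), and 8.83 ± 15.2 against 840 ± 179 FPKM (SD, n = 3 each). Without 2-month replicate 2 the remaining libraries had 3 and 0 counts and the adjusted p was 7.4e-05, and with all libraries DESeq2 and limma called it higher.

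Ppbp and Pf4 did not keep 1 ratio in all libraries. Ppbp per Pf4, in FPKM, was 2.94 to 3.02 in the 18-month libraries, 2.21 in 2-month replicate 2 and 1.03 in 2-month replicate 1, where it rested on 3 and 2 counts. In 2-month replicate 3 it was 0, since that library had 96 counts of Pf4 and none of Ppbp. With 0 counts, up to 3 counts of Ppbp could have been missed there by counting error alone. Monocytes and macrophages also make some Pf4, and their markers summed to 36.5 FPKM in 2-month replicate 3 and to 6.42 in replicate 1.

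Markers of megakaryocytes and platelets moved with both genes. The 10 markers, with Itga2b and Gp9 among them, summed to 6.62, 43.9 and 7.17 FPKM at 2 months and to 322, 449 and 434 FPKM at 18 months, and 10 of 10 were called higher. No gene of the megakaryocyte, neutrophil, monocyte, lymphocyte, endothelial or reticular marker lists was at 0 in all libraries of either age. Pf4 per unit of these markers was 0.668 to 0.726 at 18 months, 0.272 and 0.322 in 2-month replicates 2 and 3, and 0.00717 in replicate 1. Itgb3 alone gave 4.93, 30.7 and 5.2 FPKM of the sums at 2 months, which was most of each. At 18 months it gave 63.1, 81.0 and 80.3 FPKM, a minor part, so the sums are not alike in make-up between the ages. The lower ratios in 2-month replicates 2 and 3 therefore depend on that gene. The ratio of replicate 1 rested on 2 counts of Pf4 (0.0475 FPKM), whichever markers are summed. In bulk RNA, fewer cells of a type and less RNA per cell cannot be told apart, and the part of these cells in the ligand values was not tested.

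The ligands of granulocytes and monocytes followed, with 4 of 6 called higher and none lower. Ccl6 and Ccl9, CC ligands that act through Ccr1 and are made by myeloid cells in mice, led the group. Ccl6 had 13, 1229 and 61 counts at 2 months and 16928, 20352 and 20046 counts at 18 months. It rose from 4.13 ± 6.54 to 165 ± 21.8 FPKM (SD, n = 3 each), by 5.32 ± 1.65 on the log2 scale (SE, edgeR adjusted p = 0.040). The call was lost without 2-month replicate 3 or without any 18-month library (adjusted p of 0.078 to 0.097) and with no filter on low counts (0.055), and without 2-month replicate 2 the log2 fold change was 8.70.

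Ccl9 was detected in every library, with 49, 1174 and 538 counts at 2 months and 7622, 8625 and 8780 counts at 18 months. All 18-month libraries lay above all 2-month libraries, and 2-month replicates 2 and 3 lay well above replicate 1. The rise from 3.34 ± 3.15 to 42.5 ± 4.56 FPKM (SD, n = 3 each) was 3.63 ± 1.0 on the log2 scale (SE, edgeR adjusted p = 0.027). It was lost without 2-month replicate 3 or without any 18-month library (adjusted p of 0.058 to 0.087), and was 4.52 without 2-month replicate 2. Ccl6 lies 9.24 kb from Ccl9 on chromosome 11, but their balance differed: Ccl6 per Ccl9 was 0.431, 1.77 and 0.188 at 2 months and 3.77 to 4.0 at 18 months, in FPKM.

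Ccl3 and Ccl4 (MIP-1 alpha and MIP-1 beta), which attract monocytes and T cells, were far less abundant. Ccl3 had 0, 7 and 4 counts at 2 months and 122, 93 and 85 at 18 months, and rose by 4.49 ± 0.90 on the log2 scale (SE, edgeR adjusted p = 0.0095; 5.24 without 2-month replicate 2). Ccl4 had 0, 11 and 0 counts at 2 months and 92, 33 and 30 at 18 months. It was not called (log2 fold change 3.56 ± 1.39, SE, edgeR adjusted p = 0.076), and it was called without 2-month replicate 2 (adjusted p = 0.0062), where both remaining 2-month libraries were at 0.

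Of the 3 neutrophil attractants whose promoters are shown above, Cxcl2 had 0, 0 and 3 counts at 2 months and 123, 227 and 252 counts at 18 months. Set against a floor of 3 counts per library, it was at least 56.0-fold higher at 18 months (edgeR adjusted p = 0.0040). Cxcl1 and Cxcl3, which carry the same capital letters in their promoters, did not separate by age. Cxcl1 had 5, 15 and 4 counts at 2 months and 19, 20 and 15 at 18 months (log2 fold change 0.94 ± 0.59, SE, edgeR adjusted p = 0.22; 1.66 without 2-month replicate 2). Cxcl3 had 61, 32 and 14 counts at 2 months and 15, 3 and 32 at 18 months (log2 fold change -1.38 ± 0.94, SE, edgeR adjusted p = 0.26). Whether Cxcl2 differed from its relatives in its response to age was not tested, and such close relatives can share reads.

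Markers of the candidate sources moved with these ligands. Of the 14 neutrophil markers, 13 were higher without overlap at 18 months, as were 33.9% of all genes tested. None was called in edgeR, where 2 had an unadjusted p under 0.05. Against this, 10 were called in DESeq2, 13 in limma and 13 in edgeR without 2-month replicate 2. The 10 monocyte and macrophage markers summed to 6.42, 156 and 36.5 FPKM at 2 months and to 570 to 574 FPKM at 18 months, with 3 of 10 called higher. Ccl9 per unit of monocyte and macrophage markers stayed between 0.0421 and 0.0861 over all 6 libraries, while Ccl9 per unit of neutrophil markers ran from 0.000864 to 0.0288. Ccl6 behaved the other way round: it ran from 0.00279 to 0.0124 per unit of neutrophil markers and from 0.0162 to 0.314 per unit of monocyte and macrophage markers. In 2-month replicate 1 its ratios rested on 13 counts of Ccl6 and a neutrophil sum of 10.1 FPKM. In 2-month replicate 3, Mmp9 alone gave 51.0 of the 109 FPKM of neutrophil markers. Ratios over 6 libraries that share their depth are a description, and the part of either cell type was not tested.

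**Figure D2:**
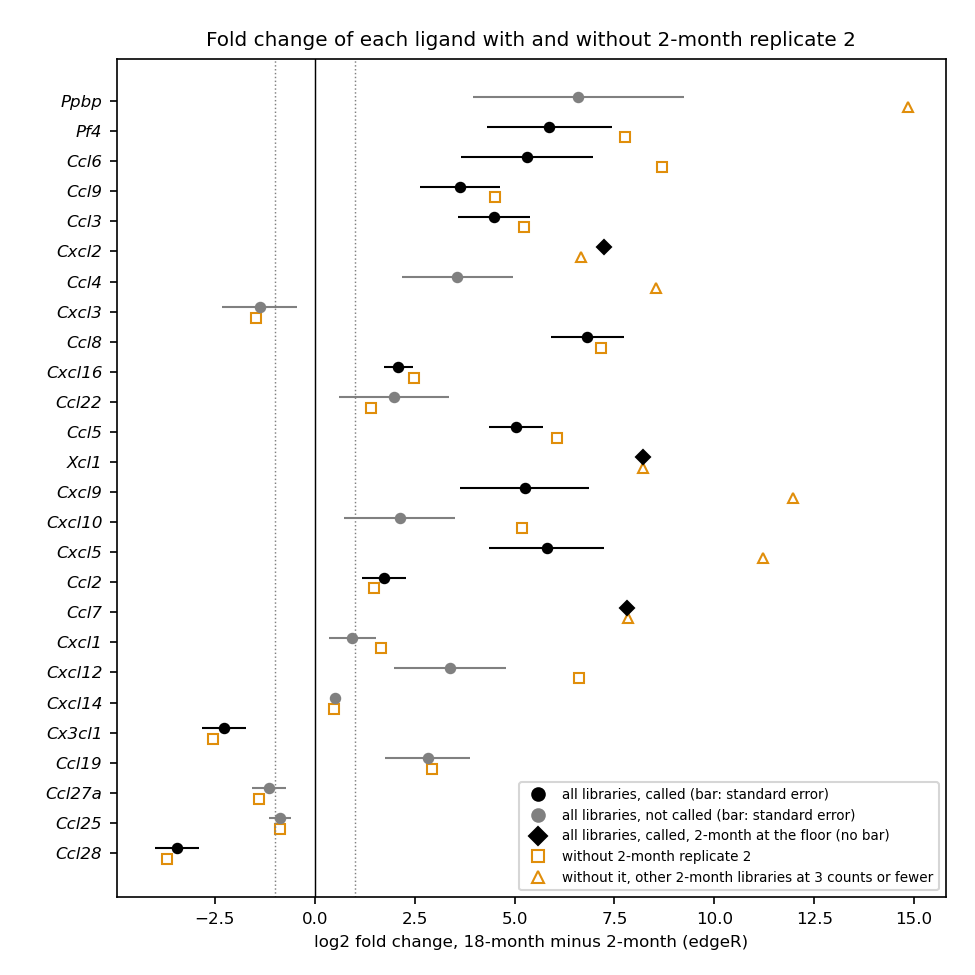
Log2 fold change of each tested ligand, 18-month minus 2-month, from edgeR with all 6 libraries (black called, grey not called, bars are the standard error, diamonds have every 2-month library at 3 counts or fewer) and without 2-month replicate 2 (orange). Orange triangles mark fits in which the other 2-month libraries had 3 counts or fewer, so their position is not a measured fold, and Ppbp and Cxcl12 are the abundant ligands that change from grey to called without that library.

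Among ligands of macrophages and dendritic cells, 2 of 6 were called higher. Ccl8 (MCP-2) had 0, 7 and 7 counts at 2 months and 767, 587 and 583 counts at 18 months. It rose from 0.141 ± 0.122 to 19.5 ± 2.46 FPKM (SD, n = 3 each), or by 6.82 ± 0.91 on the log2 scale (SE, edgeR adjusted p = 0.0028). In the 2-month libraries replicate 2 held no more Ccl8 than replicate 3, at 1.05% and 1.12% of the 18-month mean FPKM. With 7 counts in each, these shares are too close to the floor to rank the libraries.

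Cxcl16, a membrane-anchored ligand that binds Cxcr6 and also takes up oxidized lipoprotein, was present at both ages. It had 95, 296 and 177 counts at 2 months and 1031, 876 and 941 counts at 18 months. The rise from 1.09 ± 0.551 to 4.85 ± 0.235 FPKM (SD, n = 3 each) was 2.09 ± 0.37 on the log2 scale (SE, edgeR adjusted p = 0.0064). Ccl22, which draws regulatory T cells through Ccr4, stayed low, at 0, 0 and 10 counts against 25, 12 and 14 (log2 fold change 1.99 ± 1.38, SE, edgeR adjusted p = 0.27). Without 2-month replicate 3, which held all its 2-month counts, it was called (adjusted p = 0.025). Ccl12, Ccl17 and Ccl24 were not tested, with at most 50, 40 and 18 counts in a library.

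The lymphocyte ligands Ccl5 and Xcl1 were both called higher. Ccl5 (RANTES), which cytotoxic T cells and NK cells make and platelets also store, had 11, 46 and 9 counts at 2 months and 751, 869 and 878 counts at 18 months. It rose from 0.381 ± 0.372 to 13.4 ± 1.58 FPKM (SD, n = 3 each), by 5.03 ± 0.67 on the log2 scale (SE, edgeR adjusted p = 0.0028; 6.06 without 2-month replicate 2). Xcl1 (lymphotactin), the ligand of the dendritic cell receptor Xcr1, had no count in any 2-month library and 69, 32 and 22 counts at 18 months, at least 11.1-fold higher (edgeR adjusted p = 0.0080). Ccl1 had 7 counts in 18-month replicate 2 and none elsewhere.

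T and NK cell markers summed to 0.308, 11.2 and 0.331 FPKM at 2 months and to 113, 98.4 and 99.2 FPKM at 18 months, with 5 of 10 called higher. Cd3e, part of the T cell receptor complex, was at 0, 21 and 0 counts at 2 months. Nkg7 alone gave 96.3, 82.9 and 84.6 FPKM of the sums at 18 months and 7.12 FPKM in 2-month replicate 2. In 2-month replicates 1 and 3 it gave only 0.0404 and 0.0548 FPKM, so the sums are not alike in make-up. Ccl5 per unit of these markers was 0.102 to 0.146 at 18 months, 0.072 in 2-month replicate 2, and 0.619 and 0.434 in 2-month replicates 1 and 3, where it rested on 11 and 9 counts. The part of these cells was not tested.

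Cxcl9 and Cxcl10, which interferon-gamma induces and which both bind Cxcr3 on activated T cells, lie 18.6 kb apart on chromosome 5. Cxcl9 had 0, 38 and 0 counts at 2 months and 543, 548 and 543 counts at 18 months, and rose by 5.25 ± 1.61 on the log2 scale (SE, edgeR adjusted p = 0.038). The call was lost without 2-month replicate 3 or without any 18-month library (adjusted p of 0.068 to 0.094) and with no filter on low counts (0.052), whereas without 2-month replicate 2, the only 2-month library with counts, the adjusted p was 0.00012. Cxcl10 had 4, 54 and 0 counts at 2 months and 163, 67 and 62 counts at 18 months. Its lowest 18-month library was only slightly above 2-month replicate 2, and it was not called (log2 fold change 2.13 ± 1.39, SE, edgeR adjusted p = 0.24); without that library the value was 5.18 (adjusted p = 0.0089). The 18-month libraries were alike in Cxcl9 but not in Cxcl10, which was highest in replicate 1.

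Inflamed stroma is the usual source of Ccl2, Ccl7, Ccl11, Cxcl1 and Cxcl5, and 3 of these 5 were called higher, all at low levels. Cxcl5, another neutrophil attractant, had 0, 15 and 0 counts at 2 months and 176, 452 and 329 at 18 months, a log2 fold change of 5.80 ± 1.44 (SE, edgeR adjusted p = 0.019). It was not called without 18-month replicate 2 (adjusted p = 0.063) or replicate 3 (0.057), and without 2-month replicate 2 the adjusted p was 0.0016. Ccl7 (MCP-3), a monocyte attractant, had no count at 2 months and 39, 20 and 34 counts at 18 months, at least 8.48-fold higher (edgeR adjusted p = 0.0057).

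Ccl2 (MCP-1), the main attractant of Ccr2-bearing monocytes, was low at both ages. It had 8, 7 and 17 counts at 2 months and 43, 30 and 58 counts at 18 months, or 0.164 ± 0.088 against 0.581 ± 0.183 FPKM (SD, n = 3 each). The log2 fold change of 1.73 ± 0.55 (SE, edgeR adjusted p = 0.043) was past the threshold with all libraries. It was lost when any library except 2-month replicate 3 was left out (adjusted p of 0.073 to 0.14), and with no filter on low counts (0.071). Ccl11 (eotaxin) had at most 8 counts in a library and was not tested. At 18 months Ccl2, Ccl7, Ccl11, Cxcl1 and Cxcl5 summed to 2.90 to 4.83 FPKM, against 849 to 1270 FPKM for Pf4 and Ppbp.

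The resident stromal and endothelial ligands Cxcl12, Cxcl14 and Cx3cl1 took 3 different courses. Cxcl12 (SDF-1, ENSMUSG00000061353, chr6:117168535-117181367) had 610, 18521 and 651 counts at 2 months and 75969, 75190 and 76494 counts at 18 months. The 18-month libraries were alike, and 2-month replicate 2 lay between the ages, at 26.9% of the 18-month mean FPKM against 0.942% and 0.984% for the other 2-month libraries. At 13.8 ± 21.6 against 144 ± 4.79 FPKM (SD, n = 3 each), it was not called (log2 fold change 3.38 ± 1.40, SE, edgeR adjusted p = 0.089). Without 2-month replicate 2 the log2 fold change was 6.60 (adjusted p = 3.2e-05).

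Cxcl12 moved with markers of the marrow, but not in proportion to them. Markers of marrow reticular stroma, the cells that make Cxcl12 in marrow, summed to 16.0, 28.4 and 14.9 FPKM at 2 months and to 35.9 to 38.1 at 18 months. Foxc1, the reticular marker called lower, gave 10.7, 8.82 and 10.3 FPKM of these sums at 2 months and 2.55 to 2.76 at 18 months. The reticular sums are therefore not alike in make-up between the ages. Endothelial markers summed to 2.67, 46.5 and 7.18 FPKM at 2 months and to 39.0 to 43.3 at 18 months, so that 2-month replicate 2 was at 113% of the 18-month mean. Cxcl12 per unit of reticular markers was 0.0844, 1.36 and 0.0947 at 2 months and 3.84 to 3.90 at 18 months, and per unit of endothelial markers it was 0.507, 0.832 and 0.197 against 3.39 to 3.55. Of the reticular markers 1 of 5 was called higher and 1 lower, and of the endothelial markers 2 of 8 were called higher. The part of these cells in the Cxcl12 values was not tested.

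Cxcl14, a ligand made by resting epithelial and stromal cells, was the steadiest of the abundant ligands. It had 2901, 2917 and 2604 counts at 2 months and 4591, 4951 and 4843 counts at 18 months. The ages did not overlap, with 27.2 ± 1.76 and 40.7 ± 2.96 FPKM (SD, n = 3 each), and 2-month replicate 2 (27.3 FPKM) lay between the other 2-month libraries. The log2 fold change of 0.50 ± 0.12 (SE, edgeR adjusted p = 0.016) was under the limit of 1, so Cxcl14 was not called. Per unit of chondrocyte markers it was 0.0021 to 0.00277 at 2 months and 0.111 to 0.454 at 18 months.

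Cx3cl1 (fractalkine), the membrane-anchored ligand of Cx3cr1 on monocytes and microglia, fell. It had 1207, 462 and 811 counts at 2 months and 341, 114 and 194 counts at 18 months, without overlap. The level was 3.75 ± 1.79 FPKM at 2 months and 0.840 ± 0.417 at 18 months (SD, n = 3 each), a log2 fold change of -2.27 ± 0.55 (SE, edgeR adjusted p = 0.018). It was not called without 18-month replicate 2 (adjusted p = 0.053) or replicate 3 (0.066). Cx3cl1 was highest in the libraries with the lowest endothelial sums. Cx3cl1 and endothelial markers were at 5.58 and 2.67 FPKM in 2-month replicate 1, and at 2.00 and 46.5 in 2-month replicate 2. The 18-month libraries lay below 2-month replicate 2 in both, at 0.461 to 1.29 and 39.0 to 43.3 FPKM. Chondrocyte markers and Cx3cl1 both had lower values in every 18-month library, but not in proportion. Cx3cl1 per unit of chondrocyte markers was 0.000535, 0.000161 and 0.000303 at 2 months and 0.0038 to 0.00804 at 18 months. Among the 2-month libraries, Cx3cl1 was lowest in replicate 2, where the chondrocyte sum was highest (12400 FPKM). The part of chondrocytes was not tested.

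Ccl19, which guides T cells and dendritic cells through Ccr7, had 16, 11 and 0 counts at 2 months and 110, 63 and 62 counts at 18 months. It was not called (log2 fold change 2.82 ± 1.07, SE, edgeR adjusted p = 0.070), and it was called without 2-month replicate 3 (2.25, adjusted p = 0.033). Cxcl13, the B cell follicle ligand, reached 66 counts in 18-month replicate 1 and 44 in 2-month replicate 3, and was not tested. The Ccl21a, Ccl21b and Ccl21d genes had at most 11 counts in a library and are near-identical copies, between which reads cannot be divided with certainty.

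Of the 6 epithelial ligands, 1 was called lower and none higher. Ccl28, a mucosal ligand of Ccr10 and Ccr3, had 142, 95 and 177 counts at 2 months and 19, 7 and 20 counts at 18 months. It fell from 0.504 ± 0.160 to 0.0465 ± 0.0232 FPKM (SD, n = 3 each), a log2 fold change of -3.46 ± 0.55 (SE, edgeR adjusted p = 0.0045). Ccl25, the thymic ligand of Ccr9, had 359, 559 and 675 counts against 336, 340 and 370. Its log2 fold change of -0.87 ± 0.27 (SE, edgeR adjusted p = 0.038) was under the limit of 1, and it was past it without 2-month replicate 1 (-1.06, adjusted p = 0.022).

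Ccl27a had 235, 158 and 306 counts at 2 months and 194, 99 and 99 at 18 months, with overlap between the ages (log2 fold change -1.15 ± 0.42, SE, edgeR adjusted p = 0.062). It was called without 2-month replicate 2 (-1.39, adjusted p = 0.017) and without 18-month replicate 1 (-1.48, adjusted p = 0.048). Its near-identical copy Ccl27b had at most 8 counts, so the division of reads between them is uncertain. Cxcl15, a lung ligand, had 4, 21 and 0 counts at 2 months and none at 18 months, and Cxcl17 had at most 4 counts in a library. Neither was tested.

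Summed over all 38 ligands, the transcripts took 0.0119%, 0.0539% and 0.0129% of all counts in 2-month replicates 1 to 3 and 0.282%, 0.350% and 0.347% at 18 months. The widest Wilson 95% interval ran from 0.0533% to 0.0546% for 2-month replicate 2 and from 0.348% to 0.352% for 18-month replicate 2, and these intervals cover counting error only. In FPKM, which allows levels to be compared between genes, the sums were 42.0, 132 and 44.4 at 2 months and 1260, 1740 and 1710 at 18 months. Ppbp took 50.2% to 54.8% of the ligand FPKM at 18 months, Pf4 17.1% to 18.5%, Ccl6 10.3% to 11.1% and Cxcl12 8.38% to 11%. At 2 months Cxcl14 was the first ligand in replicates 1 and 3, with 68.8% and 57.2% of the ligand FPKM, and in replicate 2 Cxcl12 came first with 29.3% and Cxcl14 second with 20.6%.

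**Figure D3:**
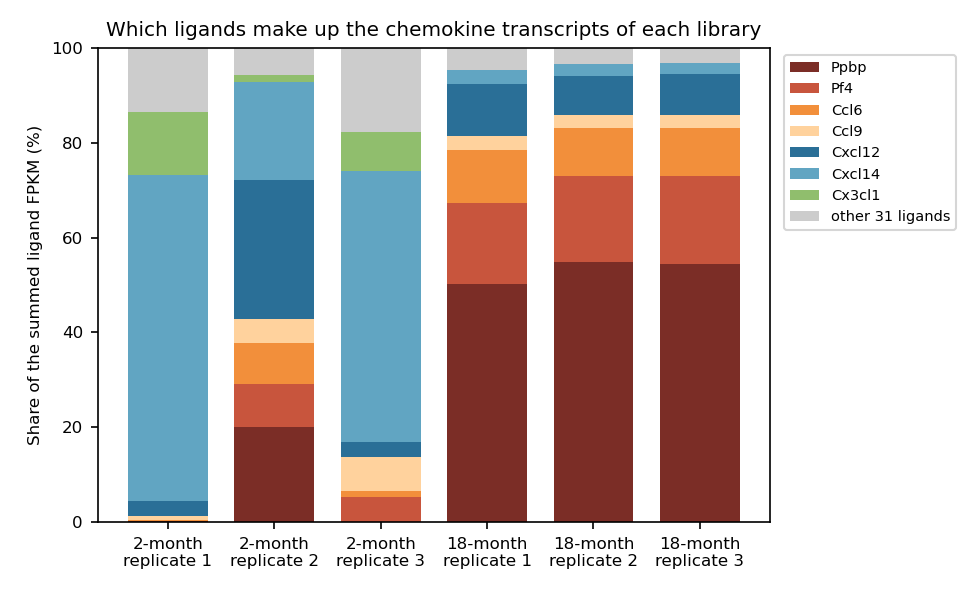
Share of the summed ligand FPKM taken by 7 ligands and by the other 31 together, as stacked bars for each library. Ppbp (dark red) takes 50.2% to 54.8% in the 18-month libraries, and Cxcl14 (light blue) takes 68.8% and 57.2% in 2-month replicates 1 and 3.

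The level of 2-month replicate 2, taken as a share of the 18-month mean FPKM, separated the ligands from each other. It was 34.3% for Cxcl16, 26.9% for Cxcl12, 15.5% for Ccl9, 7.07% for Ccl6, 6.02% for Ccl5, 4.23% for Pf4, 3.15% for Ppbp and 1.05% for Ccl8. Cxcl2, Xcl1 and Ccl7 had no count in that library. Marker lists spread as widely in it, from 113% for endothelium and 76.3% for marrow reticular stroma to 27.3% for monocytes and macrophages, 10.9% for megakaryocytes and platelets, 10.8% for T and NK cells and 9.08% for neutrophils. In order, Cxcl12 stood below both stromal lists, Ccl9 and Ccl6 stood on either side of the neutrophil list and below the monocyte and macrophage list, and Pf4 and Ppbp stood below the platelet list. Itgb3 gave 30.7 of the 43.9 FPKM of the platelet list in 2-month replicate 2 and stood at 41.0%. The other platelet markers stood at 1.0% to 6.07% there, a range that holds Pf4 and Ppbp. Of the reticular markers, Foxc1 stood at 332% and the others at 40.6% to 63.8%. This library alone gives these shares, so they carry no replicate error.

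**Figure D4:**
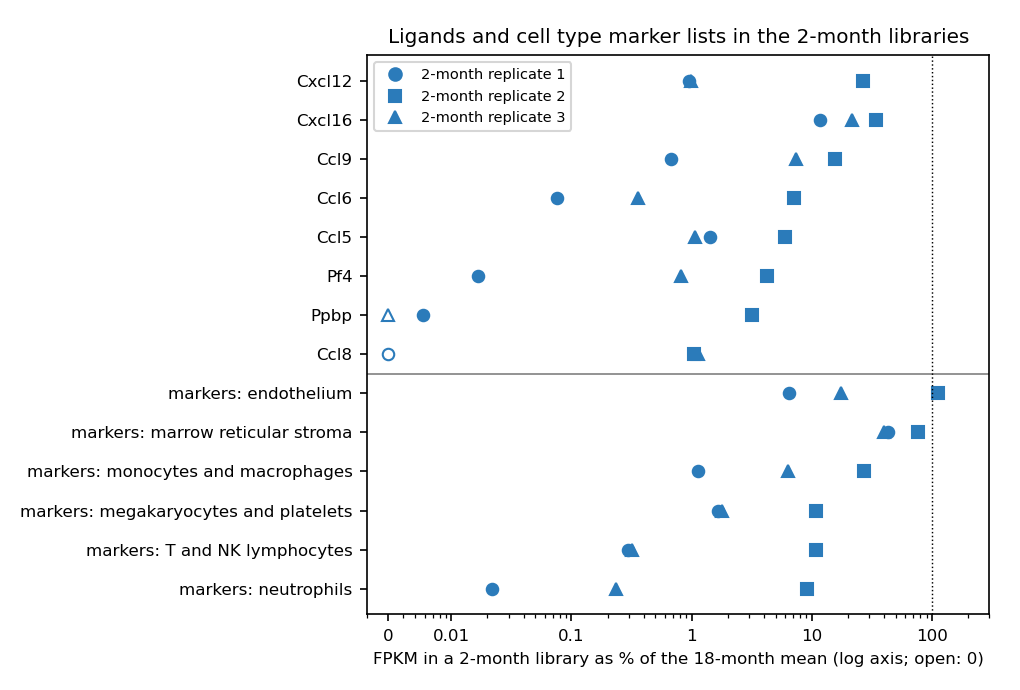
FPKM of 8 ligands (top) and summed FPKM of 6 marker lists (bottom) in each 2-month library as a percentage of the 18-month mean, on a log axis, with open symbols for 0. Replicate 2 (squares) is the highest 2-month library for every entry except Ccl8, where replicates 2 and 3 lie at 1.05% and 1.12%.

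Neighbouring genes differed in level and, in some clusters, in their calls. In the chromosome 5 cluster from Cxcl5 to Cxcl2, 3 of the 6 tested genes were called higher (Cxcl5, Pf4 and Cxcl2), while Cxcl3 and Cxcl1 between them had 0.0118 to 0.164 FPKM in the 18-month libraries. In the chromosome 11 cluster from Ccl2 to Ccl1 (chr11:82035571-82305690), Ccl2, Ccl7 and Ccl8 were called higher, and Ccl8 held 19.5 FPKM at 18 months against 0.581 for Ccl2 and 0.590 for Ccl7. The other chromosome 11 cluster (chr11:83525778-83664683) was the most uniform: Ccl5, Ccl9, Ccl6 and Ccl3 were called higher, Ccl4 was not, and all 5 were higher without overlap. On chromosome 8 (chr8:94745590-94812036), Cx3cl1 was called lower, its neighbour Ccl22 was not called and Ccl17 was not tested.

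**Figure D5:**
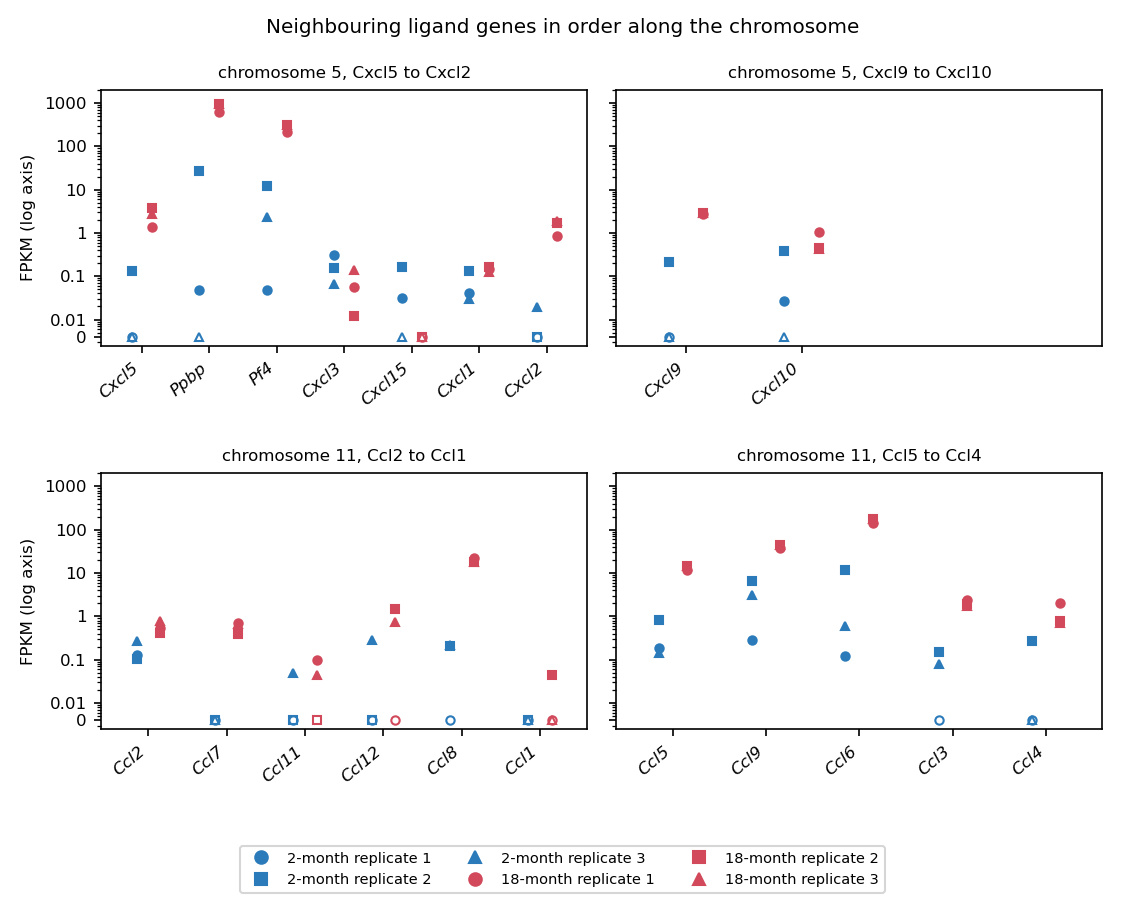
FPKM (log axis, open symbols for 0) of ligand genes in their order along chromosomes 5 and 11, by library, with 2-month libraries in blue and 18-month libraries in red. Pf4 at 282 FPKM lies beside Cxcl3 at 0.0700 FPKM (18-month means), while the 5 genes from Ccl5 to Ccl4 are all higher at 18 months without overlap.

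The receptors of these ligands gave mixed calls, with 6 of 23 higher, 2 lower, 13 not called and 2 not tested, and a median log2 fold change of 2.82 over the 21 tested. Of the tested receptors 28.6% were called higher and 9.52% lower, against 14.9% and 21.3% of all genes tested. The decoy receptors that clear chemokines went in both directions. Ackr3, which removes Cxcl12, fell from 42.4 ± 11.9 to 5.00 ± 2.12 FPKM (SD, n = 3 each), a log2 fold change of -3.18 ± 0.39 (SE, edgeR adjusted p = 0.0023). Ackr2, which removes inflammatory CC ligands, fell by 2.31 ± 0.59 on the log2 scale (edgeR adjusted p = 0.021), and Ackr1, carried by red cells and venules, rose by 3.39 ± 1.13 (edgeR adjusted p = 0.049). Ackr2 lost its call without either 2-month replicate 1 or 3 or 18-month replicate 2 or 3 (adjusted p of 0.053 to 0.071), and Ackr1 without 2-month replicate 3 or any 18-month library (0.093 to 0.14). Among signalling receptors, Cxcr3, Cxcr1 and Cxcr6 rose by 3.81, 6.90 and 3.85 on the log2 scale (edgeR adjusted p = 0.047, 0.0046 and 0.0071). Cxcr1 had 4, 0 and 0 counts at 2 months and 204, 242 and 186 at 18 months. The size of its fold change therefore rests on 2-month counts near the floor. Cxcr3 lost its call without 2-month replicate 1 or any 18-month library (adjusted p of 0.095 to 0.11). Without 2-month replicate 2 the log2 fold changes of Ackr1, Cxcr3 and Cxcr6 were 5.25, 5.53 and 4.91.

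Cxcr4 and Cxcr2, signalling receptors of abundant ligands, were not called across all libraries. Cxcr4, the signalling receptor of Cxcl12, was at 0.144, 25.5 and 1.46 FPKM at 2 months and 112 to 114 FPKM at 18 months (log2 fold change 3.65 ± 1.63, SE, edgeR adjusted p = 0.11). Cxcr2, the receptor of Ppbp after cleavage and of Cxcl1 to Cxcl3 and Cxcl5, was at 0.0554, 6.83 and 0 FPKM against 57.5 to 75.5 (log2 fold change 4.80 ± 2.18, SE, edgeR adjusted p = 0.11). Without 2-month replicate 2 both were called (adjusted p of 0.0018 and 0.00015), and 18 receptors were called higher; without 18-month replicate 3, 3 were. Cxcl12, Cxcr4 and Cxcr2 shared this pattern of a 2-month replicate 2 between the ages, and Ackr3 was lower in that library (30.2 FPKM) than in the other 2-month libraries (53.9 and 43.1).

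Among 16 inducers of chemokine transcription in the table, 6 were called higher and none lower at 18 months, with a median log2 fold change of 0.97 over the 15 tested. Il1b, the cytokine that switches on Cxcl1, Cxcl2 and Ccl2 in many cells, rose from 0.754 ± 1.11 to 26.5 ± 4.07 FPKM (SD, n = 3 each; log2 fold change 5.10 ± 1.25, SE, edgeR adjusted p = 0.018). Irf1 and Irf7, which carry interferon signals to genes such as Cxcl9 and Cxcl10, rose by 1.68 and 2.33 on the log2 scale (edgeR adjusted p = 0.017 and 0.047). Il1a and Il6 were also called higher. Irf7 and Il6 lost their calls when any library except 2-month replicate 2 was left out (adjusted p of 0.066 to 0.13 and 0.057 to 0.10), and Irf1 without 2-month replicate 3 or 18-month replicate 3 (0.05 to 0.062). Without 2-month replicate 2 the log2 fold changes of Il1b and Irf7 were 7.64 and 3.67. Rela and Nfkb1, subunits of NF-kB, were not called, with log2 fold changes of 0.30 and 0.53. Of 12 proteases that trim or shed chemokines, Adam10, which sheds Cx3cl1 and Cxcl16 from the membrane, was the only gene called (log2 fold change 1.81 ± 0.44, SE, edgeR adjusted p = 0.018; 2.49 without 2-month replicate 2). That call was lost without 2-month replicate 3 or 18-month replicate 2 or 3 (adjusted p of 0.057 to 0.062).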

How the data were processed

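Articular cartilage of WT mice was profiled by strand-specific poly(A) RNA sequencing. The authors deposited raw whole-number read counts for each gene, and FPKM values scaled to transcript length and library. The submitters' processing notes name cutadapt 1.9, HISAT2 2.0.4, UMI-tools, StringTie 1.3.4d, DESeq2 and edgeR, with no order. The genome build and annotation are not given in the sources used here. Of the gene IDs in the table, 33865 were found in GENCODE M21 (GRCm38), 87.5% of them at the same position. All 6 libraries were used and 0 columns were left out.

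The count test was edgeR 4.0.16 in R 4.3.3 (TMM, filterByExpr, glmQLFit and glmQLFTest), with 18-month against 2-month as the only contrast. Benjamini-Hochberg adjustment covered 20397 genes. The standard error was derived from the log2 fold change and the F statistic. A group in which every library had 3 counts or fewer was set to 3 counts per library, and the fold was then given as a lower bound. An exact permutation test of 3 against 3 libraries cannot go below 0.1 and was not used. Limma 3.58.1 on log2(FPKM + 0.1) or log2(FPKM + 1), DESeq2 1.42.0, other scalings and filters, a replicate block and leaving out each library were the alternatives. The fits were tested on simulated data. Figures were drawn with matplotlib 3.10.9.

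Every ligand found by symbol was named, with receptors, inducers and proteases named if called, and some of these are not reported here. Of those lists, called genes with a mean of at least 1 FPKM came first. Cxcr4, Cxcr2, Rela, Nfkb1 and the uncalled markers were added after their values were seen. The members, lists and motifs were chosen with earlier results of these data known. Protein sequences were not used here, and promoters took their place. At 48171507 to 59085179 counts per library, intervals cover counting error only.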

Additional observations from a re-analysis of the deposited data

How the results depend on the processing

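No alternative turned the direction of a tested ligand. Over 26 ligands and all alternatives, 293 values kept their side of the threshold, 35 lost a call and 22 gained one. Of the 15 called ligands, 5 kept their call wherever they were tested: Ccl5, Ccl3, Cxcl2, Ccl8 and Cxcl16. Leaving out 1 library moved the ligands called higher to between 7 and 16 and those called lower to between 1 and 3, receptors called higher to between 3 and 18 and lower to between 1 and 2, and all genes called higher to between 2095 and 5007 and lower to between 3499 and 4577. With limma on log2(FPKM + 1), 1 ligand was lower, 12 receptors were higher and 2217 of all genes were lower, which moved the share of calls that were higher from 41.2% to 57.8%. Ccl28, Ccl2 and Ccl7 lost their calls there. Receptors called higher numbered 12 in DESeq2, 14 with limma on log2(FPKM + 0.1) and 3 among genes of at least 1 FPKM. With no filter on low counts, Ccl6, Cxcl9 and Ccl2 lost their calls. With no limit on the fold change, 4769 of all genes were higher. Some of these settings used fewer genes or libraries, and the cause of the shifts was not tested. Ppbp and Cxcl12 were called in DESeq2 (log2 fold changes of 6.67 and 3.46) and in both limma fits.

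Replicate numbers did not pair the samples: deviations of same-numbered libraries correlated at 0.034, 0.044 and -0.024. With the replicate block, 9 ligands were higher and 2 lower, 5 receptors higher and 2 lower, and 2523 of all genes higher and 3509 lower. Ccl2, Ccl7, Cxcl9 and Xcl1 lost their calls under the block. Depth limits the ligands with few counts, of which 12 could not be tested.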

Other observations

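Cxcl11, left out of the ligands because its annotation is a polymorphic pseudogene, had 8 counts in 2-month replicate 2 and 4 counts in 18-month replicate 2, and none in the other libraries. It lies on chromosome 5 (chr5:92359544-92365485) beside Cxcl10, and its level was at most 0.0336 FPKM.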
